A study of Mus musculus with 14 samples.

Results

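The Nr4a, Klf and Ier immediate early genes were a set of 10 genes, listed by name from 3 families of rapidly induced genes. The list uses no threshold on a measured value, but it was drawn up with earlier results of these data known. They were the orphan nuclear receptors Nr4a1, Nr4a2 and Nr4a3, the zinc finger transcription factors Klf2, Klf4, Klf6 and Klf10, and the immediate early response genes Ier2, Ier3 and Ier5. These were 10 of the 49315 genes counted, and all 10 passed the filter on low counts that left 15292 genes for testing. The libraries came from left ventricles of male mice, either wild type (WT) or HCN4F, a knock-in line in which a phenylalanine replaces a tyrosine of the pacemaker channel HCN4, a change that raises channel activity. Mice had sham surgery (Sham) or transverse aortic constriction (TAC), a narrowing of the aorta that imposes pressure overload, at 10 to 12 weeks of age, and hearts were taken 5 weeks after surgery. The groups analysed here were 4 WT-Sham, 2 WT-TAC, 4 HCN4F-Sham and 4 HCN4F-TAC hearts, with 1 library per heart. The knock-in was made in the Hcn4 gene itself and so was carried by every cell, and the sources used here do not give whether the animals were homozygous or their strain.

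Immediate early genes are switched on within minutes of a stimulus by transcription factors that are already present in the cell, so their mRNA rises without new protein synthesis and is usually short-lived. The main routes run through serum response factor with its ternary complex partners, through CREB acting downstream of cAMP and calcium, and through MEF2 proteins. The Nr4a receptors have no known hormone that switches them on, and their activity follows mainly from how much protein is made. Klf2 and Klf4 are induced by blood flow in endothelium, where they hold vessels in a quiescent state. In heart muscle many genes of this class respond to stretch, catecholamines and injury.

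Total counts per library lay between 22309914 and 35210939, and values are given as CPM, counts scaled to a common library size with TMM factors. The mean ± SD over libraries is given with n, the number of hearts. A count of 0 would have allowed at most 0.0859 to 0.137 CPM (3 counts, counting error only), and the lowest count of any member was 37. Mitochondrial genes took 13.9% to 23.1% of counts. Markers of ventricular cardiomyocytes summed to 37200 to 55780 CPM. HCN4F-TAC 2 stood apart with 31.1 CPM of 4 atrial markers against at most 5.04 CPM in the 13 other libraries. Hcn4 itself averaged 9.02 CPM, and its adjusted p-value lay between 0.238 and 0.934 in the 4 comparisons of groups (edgeR's quasi-likelihood test). These are bulk samples, so fewer cells of a type and less RNA per cell cannot be told apart.

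The promoters of 8 members were in the RefSeq table (assembly GRCm38.p6), and Ier2 and Klf10 were not among them. In the 250 bases before the transcription start, the core of the cAMP response element (CRE) bound by CREB, TGACG on either strand, was found in 5 of these 8 members against 17.8% of the 32851 promoters in the table. Nr4a1, Nr4a2 and Nr4a3 each held it 4 times, a number reached by 0.137% of all promoters. Klf2 and Klf4 each held it once. A MEF2 site was found in Nr4a2 and Klf2 against 2.92% of all promoters. The promoters of the 3 Nr4a genes and of Klf2 are shown because they hold these motifs, in lower case from 5′ to 3′ on the strand of the gene, with the CRE core and the MEF2 site in capitals. Where a run would have reached an annotated exon base of the gene in GENCODE M21 it stops before it, which left 98 bases for Nr4a3 and 221 bases for Klf2, and the fourth CRE core of Nr4a3 lay beyond that end.
Nr4a1: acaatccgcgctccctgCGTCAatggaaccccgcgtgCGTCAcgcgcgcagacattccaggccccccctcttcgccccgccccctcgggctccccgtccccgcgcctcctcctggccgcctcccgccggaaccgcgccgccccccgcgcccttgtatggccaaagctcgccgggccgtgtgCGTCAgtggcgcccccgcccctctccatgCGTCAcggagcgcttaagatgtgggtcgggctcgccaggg
Nr4a2: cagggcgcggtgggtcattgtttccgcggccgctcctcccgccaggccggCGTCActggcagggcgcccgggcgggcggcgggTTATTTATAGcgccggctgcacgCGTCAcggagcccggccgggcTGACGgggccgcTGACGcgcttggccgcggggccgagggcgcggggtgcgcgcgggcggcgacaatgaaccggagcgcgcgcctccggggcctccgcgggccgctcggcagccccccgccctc
Nr4a3: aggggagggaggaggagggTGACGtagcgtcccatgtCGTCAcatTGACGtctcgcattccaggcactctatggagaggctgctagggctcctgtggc
Klf2: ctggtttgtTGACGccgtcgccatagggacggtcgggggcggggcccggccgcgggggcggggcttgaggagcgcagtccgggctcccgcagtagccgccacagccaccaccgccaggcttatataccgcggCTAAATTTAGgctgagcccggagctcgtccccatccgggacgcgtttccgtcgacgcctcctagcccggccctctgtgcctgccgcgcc
The runs are chr15:101266596-101266845 on the plus strand for Nr4a1, chr2:57124004-57124253 on the minus strand for Nr4a2, chr4:48045055-48045152 on the plus strand for Nr4a3 and chr8:72318812-72319032 on the plus strand for Klf2, all in GRCm38. The Nr4a1 run lies within an intron of the longer GENCODE model of the gene. In Nr4a1 a pair of cores lay 229 to 233 and 209 to 213 bases before the start and another pair lay 65 to 69 and 36 to 40 bases before it. In Klf2 the MEF2 site lay 109 to 118 bases before the start. The binding site of the EGR factors, GCGNGGGCG on either strand, was found in Nr4a1, Nr4a2, Klf2 and Klf4, 4 of 8 members against 4.7% of all promoters. The KLF binding box CACCC was found in Nr4a2, Nr4a3 and Klf2, 3 of 8 members against 52% of all promoters, and in Nr4a3 1 box overlapped a CRE core. The string TATAAA of the TATA box, on either strand, was found in Nr4a2 alone, against 12.4% of all promoters. There it lay on the opposite strand, 159 to 164 bases before the start and within the MEF2 site. Other forms of the TATA box were not searched, so the other members are not shown to lack one. The full palindrome TGACGTCA, the CArG box of serum response factor, the Nr4a response element AAAGGTCA and the AP-1 site were found in 0 of the 8 members, against 1.55%, 1.47%, 1.34% and 6.75% of all promoters. G and C made up 54.4% to 80.0% of the bases of the 8 member promoters, and the median over all promoters was 52.4%. Such matches describe letters in a window and do not show binding.

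**Figure D1:**
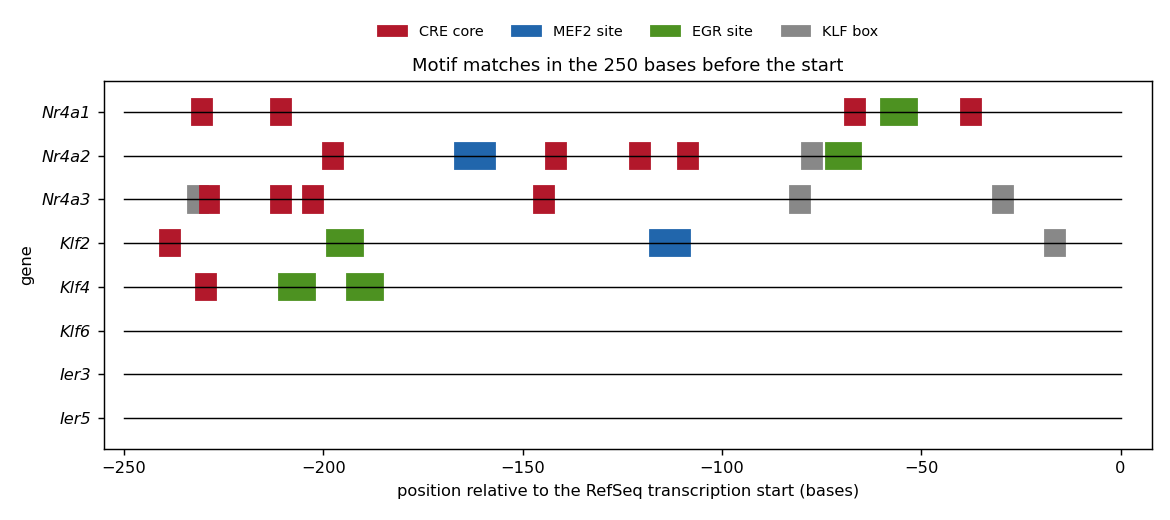
Positions of 4 motifs in the 250 bases before the RefSeq transcription start of 8 members; the x axis gives the distance from the start in bases, each line is a gene and each block a match on either strand. The 3 Nr4a genes carry 4 CRE cores each, and Klf6, Ier3 and Ier5 carry none of the 4 motifs.

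In GRCm38 the members lie on 7 chromosomes and none overlaps another annotated gene. The gene models span chr15:101254269-101274795 (plus strand) for Nr4a1, chr2:57106830-57124003 (minus) for Nr4a2 and chr4:48045153-48086447 (plus) for Nr4a3. They span chr8:72319033-72321656 (plus) for Klf2, chr4:55527143-55532466 (minus) for Klf4, chr13:5861482-5870394 (plus) for Klf6 and chr15:38291463-38300706 (minus) for Klf10. They span chr8:84661331-84662852 (minus) for Ier2, chr17:35821684-35822923 (plus) for Ier3 and chr1:155096361-155099636 (minus) for Ier5.

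Levels differed widely within the set. Per kilobase of exon and averaged over all 14 libraries, Klf2 was highest at 33.3 CPM per kb, followed by Ier2 at 24.6, Klf4 at 20.4 and Ier3 at 19.7 CPM per kb. Klf6, Ier5 and Nr4a1 followed at 14.6, 14.2 and 11.6 CPM per kb. Klf10 stood at 4.26, Nr4a3 at 1.96 and Nr4a2 at 0.548 CPM per kb. On this scale Klf2 was above 93.6% of tested genes and Nr4a2 above 23.6% of them. The order at the top did not hold in every group. Ier2 lay above Klf2 in WT-TAC, at 27.7 against 20.1 CPM per kb, and next to it in HCN4F-TAC, at 32.8 against 33.0 CPM per kb. In WT-Sham Ier2 stood at 10.1 CPM per kb, below Klf2, Klf4, Klf6, Ier3 and Ier5. Klf10, Nr4a3 and Nr4a2 were the 3 lowest members in all 4 groups.

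**Figure D2:**
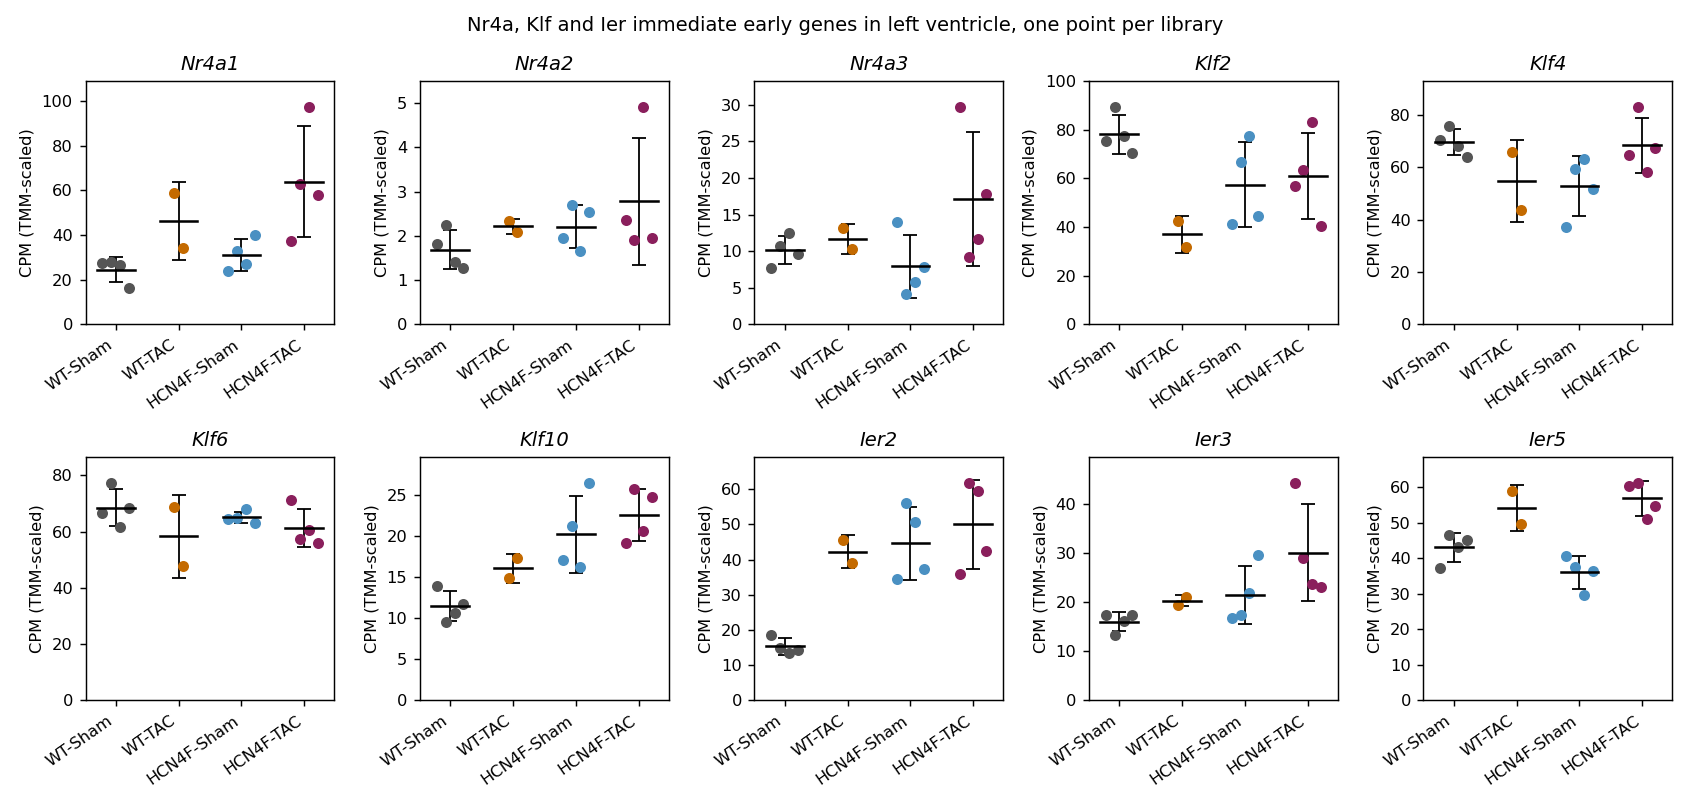
CPM of each member in each library (points, placed by replicate number), with the group mean (line) and SD (bars) in 4 WT-Sham, 2 WT-TAC, 4 HCN4F-Sham and 4 HCN4F-TAC hearts; each axis starts at 0. For Ier2 the 4 WT-Sham libraries, at 13.4 to 18.7 CPM, sit below all 10 others, and for Klf2 the 2 WT-TAC libraries sit at 31.7 and 42.4 CPM.

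The first question was how pressure overload changed these genes in WT hearts. A gene was called when its adjusted p-value was under 0.05 in edgeR's quasi-likelihood test and its log2 fold change was beyond 1 in either direction. Of the 10 members 1, Ier2, was called, against 0.706% of all tested genes. At an adjusted p-value under 0.05 alone the count was also 1, against 4.54% of tested genes. The WT-TAC libraries lay wholly above the WT-Sham libraries for 5 members, Nr4a1, Klf10, Ier2, Ier3 and Ier5, and wholly below them for 1, Klf2. With 2 WT-TAC libraries, such separation was seen upwards in 19.2% and downwards in 20% of all tested genes. The median log2 fold change of the members was 0.34, against -0.02 over all tested genes.

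The second question was the same response in HCN4F hearts. Here Nr4a1 was the 1 member called, against 2.75% of tested genes. Nr4a1 and Ier5 passed the adjusted p-value alone, 2 members against 13.6% of tested genes. Ier5 was the 1 member whose HCN4F-TAC libraries all lay above the HCN4F-Sham libraries, a separation seen in 7.95% of tested genes, and no member was separated downwards, which 7.16% of tested genes were. The median log2 fold change of the members was 0.36, against -0.01 over all tested genes.

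The third question was how the genotypes differed without and with pressure overload. In Sham hearts Ier2 was the 1 member called, against 0.209% of tested genes, and Ier2 and Klf10 passed the adjusted p-value alone, against 0.471%. The HCN4F-Sham libraries lay wholly above the WT-Sham libraries for Klf10 and Ier2, where 3.89% of tested genes were so separated, and wholly below them for Klf4, where 4.67% were. In TAC hearts edgeR's quasi-likelihood test called 0 members, against 0.0719% of tested genes, and 0 passed the adjusted p-value alone, against 0.111%. DESeq2 also called 0 members there, against 0.561% of the genes it tested, and 2 members, Klf2 and Klf10, had an unadjusted p-value under 0.05, as did 12.5% of tested genes. Klf10 and Ier3 were separated upwards and no member downwards, where 11.3% and 11% of tested genes were. All 10 members had a positive log2 fold change between the TAC genotypes, with a median of 0.40 against 0.00 over all tested genes. That shared sign rested on single libraries. Without WT-TAC 3 it held for 8 members, with Klf6 at -0.16 and Ier5 at -0.05, and the median was 0.20. Without HCN4F-TAC 3 Nr4a2 turned to -0.09, and without HCN4F-TAC 1 Klf6 turned to -0.0048, each leaving 9 members positive.

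An interaction term, which asks whether TAC acted unequally in WT and HCN4F, called 0 members and 0% of tested genes at an adjusted p-value under 0.05 with edgeR's quasi-likelihood test. At an unadjusted p-value under 0.05 there were 3 members, Klf2, Klf4 and Ier2, and 9.27% of tested genes. DESeq2 called 1 member, Ier2, and 0.284% of the genes it tested. A gene called in 1 genotype and not in the other is therefore not shown to respond differently by the test used throughout.

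**Figure D3:**
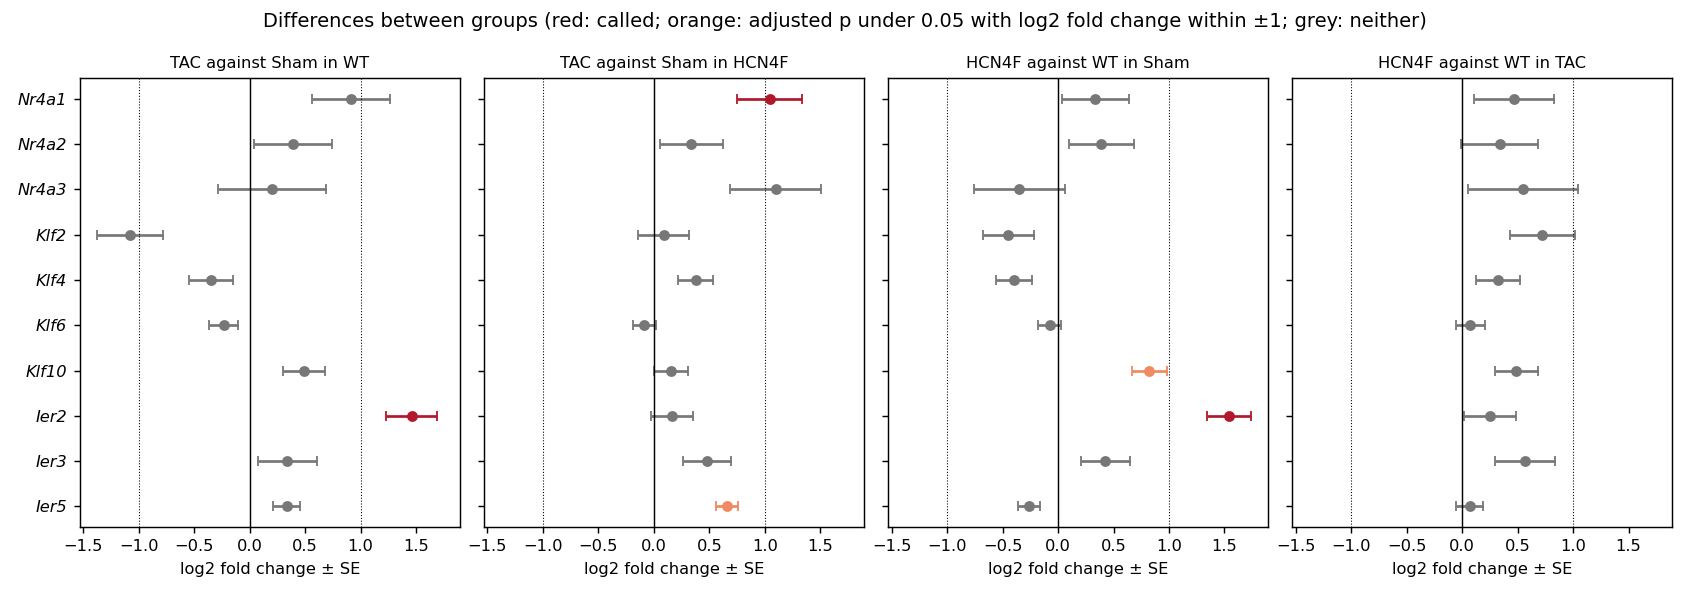
Log2 fold change of each member with its SE in 4 comparisons between groups (x axis, log2 scale; dotted lines at -1 and 1); red points were called, orange points passed the adjusted p-value with a log2 fold change within ±1, grey points did neither. Ier2 is red at 1.46 for TAC in WT and 1.54 for genotype in Sham, and Nr4a1 is red at 1.04 for TAC in HCN4F.

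Nr4a1, the member of the receptor family best known for rapid induction in many tissues, was measured at 27.4, 27.9, 26.7 and 16.3 CPM in the WT-Sham libraries 1 to 4. It stood at 58.7 and 34.1 CPM in WT-TAC 2 and 3. The HCN4F-Sham libraries gave 24.0, 32.8, 27.0 and 40.0 CPM and the HCN4F-TAC libraries 37.2, 62.8, 97.2 and 58.0 CPM. Both TAC groups were thus higher on average than their Sham groups, but HCN4F-Sham 4 lay above HCN4F-TAC 1. The means were 24.6 ± 5.52 (SD, n = 4), 46.4 ± 17.4 (n = 2), 31.0 ± 7.04 (n = 4) and 63.8 ± 24.9 CPM (n = 4). The log2 fold change with TAC in HCN4F was 1.04 (SE 0.30, edgeR's quasi-likelihood adjusted p = 0.0380). That call was lost when any of HCN4F-Sham 1, 2 or 3, WT-Sham 1 or HCN4F-TAC 2, 3 or 4 was left out, with adjusted p-values up to 0.0859, and without HCN4F-TAC 3 the log2 fold change was 0.77. It was also lost with edgeR fitted on the HCN4F groups alone (1.03, edgeR adjusted p = 0.0592), with no filter on low counts (1.05, edgeR adjusted p = 0.0790) and with the replicate number as a block (1.01, edgeR adjusted p = 0.0688). In WT the log2 fold change was 0.91 (SE 0.35, edgeR adjusted p = 0.159). It was 0.48 without WT-TAC 2 and 1.26 without WT-TAC 3, each leaving 1 library in that group. The interaction was 0.13 (SE 0.47, edgeR adjusted p = 0.961), so the responses of the genotypes could not be told apart at this spread.

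Nr4a2, a receptor known above all for its part in dopamine neurons, was the lowest member. It ranged from 1.27 to 2.25 CPM in WT-Sham and from 1.66 to 2.69 CPM in HCN4F-Sham, and stood at 2.34 and 2.09 CPM in WT-TAC. The HCN4F-TAC libraries gave 2.36, 1.91, 4.91 and 1.95 CPM, so that HCN4F-TAC 3 alone stood above all other libraries. No comparison passed the test, with log2 fold changes of 0.34 to 0.39 and edgeR adjusted p-values of 0.461 to 0.747. Without HCN4F-TAC 3 the log2 fold change with TAC in HCN4F was -0.09.

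Nr4a3, the third receptor of the family, gave 7.76, 10.8, 12.4 and 9.67 CPM in WT-Sham and 13.1 and 10.3 CPM in WT-TAC. It gave 13.9, 4.15, 5.75 and 7.88 CPM in HCN4F-Sham and 29.7, 9.25, 11.7 and 17.9 CPM in HCN4F-TAC. Library 1 was the highest of each HCN4F group, and the HCN4F groups overlapped. The log2 fold change with TAC in HCN4F was 1.10 (SE 0.41, edgeR's quasi-likelihood adjusted p = 0.100), and the value in WT was 0.20 (SE 0.49, edgeR adjusted p = 0.852). Leaving out HCN4F-Sham 1 gave 1.50 with an edgeR adjusted p of 0.0263, the 1 library of the 14 whose removal gave a call. Leaving out HCN4F-TAC 1 gave 0.69 with an edgeR adjusted p of 0.2455. The interaction for Nr4a3 was 0.90 (SE 0.64, edgeR adjusted p = 0.700). It was 1.30 without HCN4F-Sham 1 and 0.49 without HCN4F-TAC 1.

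Klf2, the flow-induced factor of endothelium, was the only member with a lower value in every WT-TAC library than in every WT-Sham library. It stood at 75.5, 89.3, 77.4 and 70.5 CPM in WT-Sham and at 42.4 and 31.7 CPM in WT-TAC. The HCN4F-Sham libraries gave 41.3, 66.6, 77.4 and 44.4 CPM and the HCN4F-TAC libraries 56.9, 63.4, 83.2 and 40.4 CPM. The HCN4F groups spanned almost the same range and overlapped both WT groups. Means were 78.2 ± 7.97 (SD, n = 4) in WT-Sham, 37.1 ± 7.55 (n = 2) in WT-TAC, 57.4 ± 17.4 (n = 4) in HCN4F-Sham and 60.9 ± 17.7 CPM (n = 4) in HCN4F-TAC. The log2 fold change with TAC in WT was -1.08 (SE 0.30, edgeR's quasi-likelihood adjusted p = 0.0591), just outside the threshold. It was called in 10 of the 22 alternative fits, with values from -1.34 to -0.88 over all 22 and adjusted p-values from 2.24e-14 to 0.389. In HCN4F the log2 fold change with TAC was 0.09 (SE 0.23, edgeR adjusted p = 0.841), and the interaction was 1.17 (SE 0.37, unadjusted p = 0.00826 and adjusted p = 0.448 in the edgeR fit).

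Klf4, which is also induced in endothelium and is known for its part in smooth muscle cells and in pluripotency, gave 70.3, 75.6, 68.2 and 63.7 CPM in WT-Sham and 65.9 and 43.6 CPM in WT-TAC. It gave 37.0, 59.3, 62.9 and 51.6 CPM in HCN4F-Sham and 64.7, 82.9, 58.3 and 67.4 CPM in HCN4F-TAC. All HCN4F-Sham libraries lay below all WT-Sham libraries, though the closest pair stood at 62.9 and 63.7 CPM. The log2 fold change between these genotypes was -0.40 (SE 0.16, edgeR's quasi-likelihood adjusted p = 0.263), and the value with TAC in HCN4F was 0.38 (SE 0.16, edgeR adjusted p = 0.141). Leaving out single libraries gave -0.49 to -0.26 and 0.24 to 0.46 for these 2 values, with the smallest changes without HCN4F-Sham 1. The interaction of 0.72 (SE 0.26) had an unadjusted p of 0.0137 and an adjusted p of 0.466 in the edgeR fit. It was 0.45 without WT-TAC 3 and 1.05 without WT-TAC 2. A sum of 5 endothelial markers ran from 786 to 932 CPM in WT-Sham, 771 to 957 in WT-TAC, 658 to 1200 in HCN4F-Sham and 869 to 919 CPM in HCN4F-TAC. These ranges overlapped, and HCN4F-Sham 1 was the library lowest in this sum and in Klf4. Sums of other markers did separate the groups in which Klf2 or Klf4 did not overlap. Between WT-Sham and WT-TAC, where Klf2 was separated, these were 5 fibroblast markers at 509.5 to 531 against 445 to 509 CPM, 4 erythroid markers at 93.0 to 199.7 against 79.6 to 90.8 CPM and 3 mesothelial markers at 4.58 to 6.997 against 7.24 to 7.89 CPM. The cardiomyocyte and neutrophil sums, given with Ier2, separated these groups and also the Sham genotypes, where Klf4 was separated. Single markers could go against their sum. Of the 5 fibroblast markers, 1 lay wholly higher and 2 wholly lower in WT-TAC than in WT-Sham. The closest fibroblast sums of these groups were 509.5 and 508.8 CPM. Of the 4 erythroid markers 3 lay wholly lower in WT-TAC, and of the 3 mesothelial markers 1 lay wholly higher. The part of these sums in the Klf2 and Klf4 results was not tested.

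Klf6, a broadly expressed factor described as a tumor suppressor in several tissues, varied least between groups. Group means for Klf6 ran from 58.2 ± 14.6 CPM (SD, n = 2) in WT-TAC to 68.4 ± 6.56 CPM (SD, n = 4) in WT-Sham, and the ranges of all groups overlapped. Its log2 fold changes lay between -0.23 and 0.07, with edgeR adjusted p-values of 0.297 to 0.860.

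Klf10, an early gene induced by TGF-beta, had its lowest mean in WT-Sham and its highest in HCN4F-TAC. It gave 13.9, 9.50, 10.7 and 11.7 CPM in WT-Sham and 14.8 and 17.3 CPM in WT-TAC. It gave 17.1, 21.2, 16.2 and 26.5 CPM in HCN4F-Sham and 19.2, 25.7, 20.6 and 24.8 CPM in HCN4F-TAC. Every library of the other 3 groups lay above every WT-Sham library, and every HCN4F-TAC library above both WT-TAC libraries. The means were 11.4 ± 1.85 (SD, n = 4), 16.1 ± 1.74 (n = 2), 20.2 ± 4.70 (n = 4) and 22.6 ± 3.16 CPM (n = 4). The log2 fold change between genotypes in Sham was 0.82 (SE 0.16, edgeR's quasi-likelihood adjusted p = 0.0331), which passed the adjusted p-value but not the fold threshold. Without HCN4F-Sham 2 or 4, or without WT-Sham 2, 3 or 4, that adjusted p was 0.0663 to 0.110 with log2 fold changes of 0.66 to 0.84, and with the replicate number as a block it was 0.0539 (log2 fold change 0.81). The value was 0.49 both for TAC in WT (SE 0.19, edgeR adjusted p = 0.141) and for genotype in TAC (SE 0.19, edgeR adjusted p = 0.310).

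Ier2, a nuclear protein with a presumed part in transcription, showed the clearest separation of the set. The WT-Sham libraries gave 18.7, 14.8, 13.4 and 14.3 CPM and the WT-TAC libraries 45.5 and 38.9 CPM. The HCN4F-Sham libraries gave 34.6, 56.0, 50.8 and 37.2 CPM and the HCN4F-TAC libraries 36.0, 61.8, 59.5 and 42.5 CPM. WT-Sham was thus low and the 3 other groups overlapped each other at 34.6 CPM or more. The means were 15.3 ± 2.32 (SD, n = 4), 42.2 ± 4.67 (n = 2), 44.6 ± 10.4 (n = 4) and 50.0 ± 12.7 CPM (n = 4). Ier2 rose 2.75-fold with TAC in WT, a log2 fold change of 1.46 (SE 0.23, edgeR's quasi-likelihood adjusted p = 0.00696). It was 2.91-fold higher in HCN4F than in WT Sham hearts, a log2 fold change of 1.54 (SE 0.20, edgeR adjusted p = 0.00369). Both values have the same WT-Sham libraries as their reference. The numbers in the library titles are higher in WT-Sham than in any other group, and higher in WT-TAC than in both HCN4F groups. What these numbers stand for is not given in the sources used here. The differences of WT-Sham from the other groups cannot be told apart from the order of these numbers. With TAC in HCN4F the log2 fold change was 0.17 (SE 0.19, edgeR adjusted p = 0.605), and between the TAC genotypes it was 0.25 (SE 0.23, edgeR adjusted p = 0.722). The interaction was -1.29 (SE 0.30), with an unadjusted p of 0.000794 and an adjusted p of 0.362 in the edgeR fit and an adjusted p of 0.00584 with DESeq2.

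The call for TAC in WT was lost without WT-TAC 2 (log2 fold change 1.35, edgeR adjusted p = 0.0511) and without WT-TAC 3 (1.57, edgeR adjusted p = 0.0924), where 1 library stood for the group and was assumed to vary like the others. The genotype call in Sham held in all 22 alternatives, at 1.42 to 1.65. Markers of other cells also set WT-Sham apart. A sum of 4 neutrophil markers was 0.535 to 1.23 CPM in WT-Sham, with Retnlg at 0 in all its libraries, 2.23 to 3.41 CPM in WT-TAC, 1.83 to 2.75 CPM in HCN4F-Sham and 1.70 to 5.16 CPM in HCN4F-TAC. The 5 ventricular cardiomyocyte markers summed to 53620 to 55780 CPM in WT-Sham, 48720 to 50620 in WT-TAC, 48060 to 51330 in HCN4F-Sham and 37200 to 44550 CPM in HCN4F-TAC. Both sums set WT-Sham apart from the 3 other groups, as Ier2 and Klf10 did. The cardiomyocyte sum also set HCN4F-TAC below WT-TAC and HCN4F-Sham, which Ier2 did not. Of the 5 cardiomyocyte markers, 1 lay wholly higher and 2 wholly lower in WT-TAC than in WT-Sham. The fibroblast, erythroid and mesothelial sums given with Klf4 also separated WT-Sham from WT-TAC, as did Nr4a1, Ier3 and Ier5. The part of these markers in those results was not tested.

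Ier3, a stress-induced regulator of cell survival, gave 17.3, 13.3, 16.2 and 17.4 CPM in WT-Sham and 19.5 and 21.1 CPM in WT-TAC. It gave 16.8, 17.4, 22.0 and 29.8 CPM in HCN4F-Sham and 44.4, 29.0, 23.8 and 23.2 CPM in HCN4F-TAC. All HCN4F-TAC libraries lay above both WT-TAC libraries, and HCN4F-Sham 4 lay within the HCN4F-TAC range. No comparison passed the test, with log2 fold changes of 0.34 to 0.57 and edgeR adjusted p-values of 0.166 to 0.486. With TAC in HCN4F it was 0.23 without HCN4F-TAC 1 and 0.68 without HCN4F-Sham 4 (edgeR adjusted p = 0.417 and 0.0447). Leaving out single libraries gave 0.32 to 0.67 between the TAC genotypes and 0.22 to 0.53 between the Sham genotypes. The TAC genotypes, between which Ier3 and Klf10 did not overlap, were also separated by the cardiomyocyte sum, by the fibroblast sum (445 to 509 CPM in WT-TAC, 560.0 to 833 CPM in HCN4F-TAC), by 4 T and B cell markers (0.781 to 1.32 and 1.63 to 2.63 CPM) and by 2 Schwann cell markers (2.92 to 3.45 and 1.34 to 2.82 CPM). Of the 2 Schwann cell markers 1 lay wholly lower in HCN4F-TAC and 1 had a positive log2 fold change. The part of these sums in the values of Ier3 and Klf10 was not tested.

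Ier5, which acts with the phosphatase PP2A and on the heat shock factor HSF1, was separated by surgery in both genotypes. It gave 37.3, 46.5, 43.2 and 45.0 CPM in WT-Sham and 58.7 and 49.6 CPM in WT-TAC. It gave 40.5, 37.4, 29.6 and 36.3 CPM in HCN4F-Sham and 60.3, 61.2, 50.9 and 54.8 CPM in HCN4F-TAC. Every TAC library exceeded every Sham library of either genotype. The log2 fold change with TAC in HCN4F was 0.66 (SE 0.10, edgeR's quasi-likelihood adjusted p = 0.000472), a 1.58-fold rise below the fold threshold, and 0.62 without HCN4F-TAC 2, the library with atrial markers. In WT it was 0.33 (SE 0.12, edgeR adjusted p = 0.116), and the interaction was 0.33 (SE 0.16, edgeR adjusted p = 0.540). Cell markers also separated the HCN4F groups in which Ier5 and Nr4a1 changed. The ventricular cardiomyocyte sum was 48060 to 51330 CPM in HCN4F-Sham and 37200 to 44550 CPM in HCN4F-TAC. A sum of 4 T and B cell markers was 0.664 to 1.17 CPM in HCN4F-Sham and 1.63 to 2.63 CPM in HCN4F-TAC, and a sum of 2 Schwann cell markers was 3.04 to 6.37 and 1.34 to 2.82 CPM. A sum of 3 adipocyte markers was 0.274 to 0.904 CPM in HCN4F-Sham and at most 0.212 CPM in HCN4F-TAC. Their part in the Ier5 and Nr4a1 results was not tested.

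Libraries of 1 group did not rank alike over the members. WT-TAC 2 exceeded WT-TAC 3 for 8 of 10 members, all but Klf10 and Ier3. WT-Sham 2 was highest of its group for 6 members and HCN4F-Sham 1 lowest of its group for 5. In HCN4F-TAC the highest library was 3 for Nr4a1, Nr4a2 and Klf2, 2 for Klf4, Klf10, Ier2 and Ier5, and 1 for Nr4a3, Klf6 and Ier3.

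**Figure D4:**
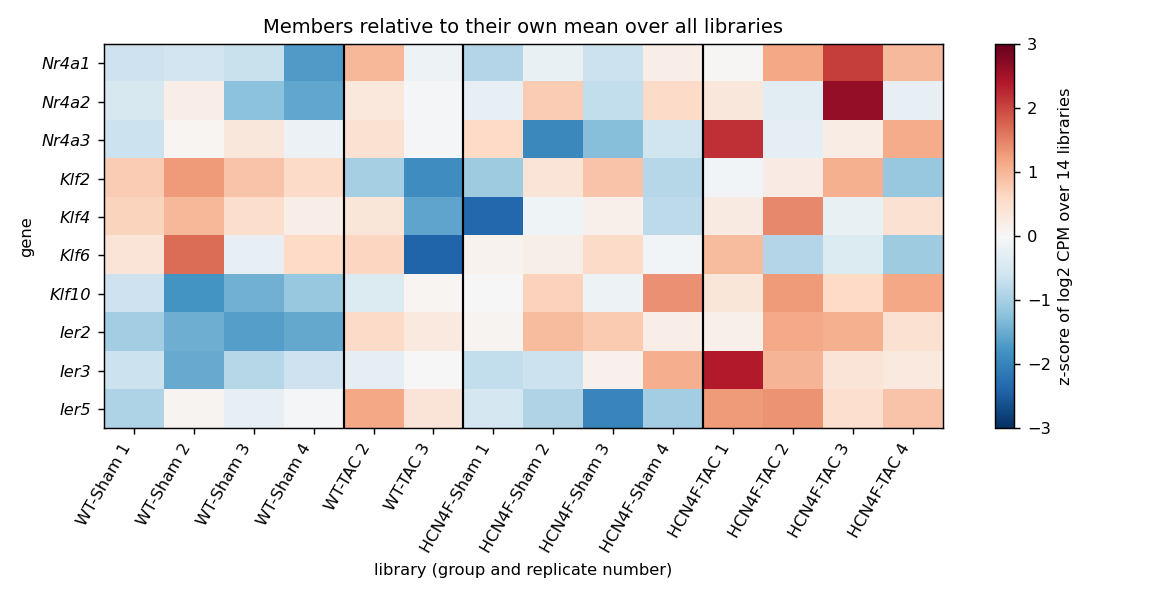
Z-scores of log2 CPM for each member (rows) over the 14 libraries (columns, grouped by vertical lines), blue below and red above the member's own mean. Klf10 and Ier2 are blue in the 4 WT-Sham libraries, while Klf2, Klf4 and Klf6 share red in WT-Sham 2 and blue in WT-TAC 3.

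The likeness of patterns was measured as the root mean square difference between z-scores of log2 CPM over the 14 libraries, which share depth and tissue composition, where 0 means the same pattern. Within the set the closest pair was Klf10 and Ier2 at 0.574, followed by Nr4a1 and Nr4a2 at 0.709 and Nr4a3 and Ier5 at 0.745. Klf2 and Klf4 differed by 0.865, and the farthest pair was Klf6 and Klf10 at 1.66. Members of 1 family could lie far apart, as Nr4a2 and Nr4a3 did at 1.34 and Klf2 and Klf10 at 1.64.

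Among 12563 other genes with a mean of at least 1 CPM, the gene nearest to Ier2 was Egr1, an immediate early zinc finger factor, at 0.181. No other member had so near a neighbour. Ier5 was nearest to Fgf6 at 0.308, Klf10 to C1qtnf2 at 0.384, Nr4a1 to Fosl2, a Fos family factor, at 0.391, Ier3 to Yipf5 at 0.399 and Klf4 to Tfip11 at 0.411. Nr4a3 was nearest to Zfp568, Klf2 to Tut1 and Nr4a2 to Plk3, each at 0.476 to 0.477, and Klf6 to Wnk4 at 0.518. The genes nearest to the mean pattern of the 10 members were Fstl3, Gcc1, Kif3a, Mafk and Ube2j1, at 0.599 to 0.608.

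A list of 33 other immediate early genes, of which 32 were tested, was set beside the members. In WT 9 of these 32 rose with TAC and 0 fell, where 0.706% of all tested genes were called in either direction. The count was 4 without WT-TAC 3 and 5 without WT-TAC 2 or WT-Sham 4. The largest values were those of Egr1 at 3.63 (SE 0.34), Egr2 at 3.58 (SE 0.69) and Egr3 at 2.82 (SE 0.54) on the log2 scale (edgeR's quasi-likelihood adjusted p = 0.00107, 0.0219 and 0.0164). In HCN4F 7 rose and 0 fell, against 2.75% of all tested genes called, led by Egr2 at 2.23 (SE 0.45), the stress factor Atf3 at 2.03 (SE 0.51) and the matrix protein gene Ctgf at 1.90 (SE 0.30, edgeR adjusted p = 0.00834, 0.0221 and 0.00184). Between the Sham genotypes 5 were higher in HCN4F and 0 lower, against 0.209% of all tested genes called. That count was 9 without HCN4F-Sham 1 and 3 without HCN4F-Sham 2 or 3 or WT-Sham 2, 3 or 4. The largest values were those of Egr1 at 3.65 (SE 0.31), Egr3 at 2.47 (SE 0.49) and Fos at 1.89 (SE 0.35, edgeR adjusted p = 0.000175, 0.0469 and 0.0411). Between the TAC genotypes edgeR and DESeq2 called 0 of 32, with 6 at an unadjusted p-value under 0.05 in the edgeR fit, as were 12.5% of tested genes. DESeq2 called 10, 7 and 9 in the first 3 comparisons, against 0.874%, 2.7% and 0.44% of the genes it tested. The median log2 fold changes of the list were 0.81, 0.47, 0.33 and 0.17 in these comparisons, where those of the members were 0.34, 0.36, 0.13 and 0.40. The list was drawn up with results of these data known, so its direction is not independent evidence.

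Egr1 had the same shape as Ier2 on a wider scale. It stood at 12.6 ± 4.05 CPM (SD, n = 4) in WT-Sham, 156 ± 44.1 CPM (n = 2) in WT-TAC, 157 ± 54.1 CPM (n = 4) in HCN4F-Sham and 217 ± 46.7 CPM (n = 4) in HCN4F-TAC. Its highest WT-Sham library was at 18.5 CPM and its lowest library elsewhere at 109 CPM. The cell markers that separated these groups stand beside the changes of Egr1 and of the other immediate early genes too. The cardiomyocyte sum was 53620 to 55780 CPM in WT-Sham against 48720 to 50620 in WT-TAC and 48060 to 51330 CPM in HCN4F-Sham, and the neutrophil sum was 0.535 to 1.23 against 2.23 to 3.41 and 1.83 to 2.75 CPM. WT-Sham and WT-TAC were also separated by the fibroblast, erythroid and mesothelial sums given with Klf4, and the HCN4F groups by the cardiomyocyte, T and B cell, Schwann cell and adipocyte sums given with Ier5. Their part in the results of this list was not tested.

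**Figure D5:**
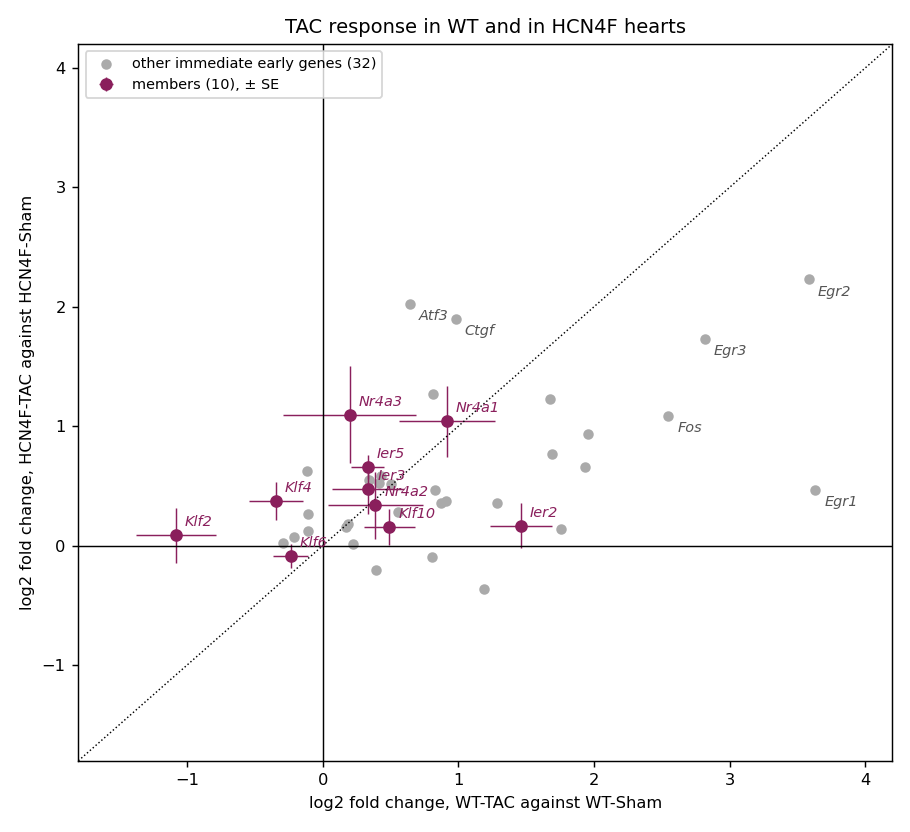
Log2 fold change with TAC in WT (x axis) and in HCN4F (y axis) for the 10 members (purple, with SE) and 32 other immediate early genes (grey); the dotted line marks equal values, and the axes share no library. Ier2 lies at 1.46 and 0.17, Egr1 at 3.63 and 0.47, Nr4a3 at 0.20 and 1.10, and Klf2 is the member farthest to the left at -1.08.

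Of the 13 other Klf genes 9 were tested, and edgeR's quasi-likelihood test called 0 of them in each of the 4 comparisons, with 0, 2, 3 and 0 at an unadjusted p-value under 0.05. Over all tested genes that share was 22%, 28.3%, 15.2% and 12.5%, and the counts below are read against it. Of 22 upstream regulators, among them serum response factor, CREB and MEF2 genes, edgeR called 0 in any of the 4 comparisons, with 5, 5, 4 and 3 at an unadjusted p-value under 0.05, near the share of all genes. Srf, the serum response factor gene, and Hdac5, a repressor of MEF2, had edgeR adjusted p-values of 0.0193 and 0.00490 with TAC in HCN4F at log2 fold changes of 0.42 and -0.37. They were named after their values were seen, as was Rxrg. Of 7 targets and partners of the members, among them the endothelial nitric oxide synthase gene Nos3 and the retinoid X receptors that pair with Nr4a proteins, edgeR called 0, with 1, 3, 2 and 0 at an unadjusted p-value under 0.05. DESeq2 likewise called 0 genes of these 3 lists in each comparison. Rxrg, one of those receptors, had log2 fold changes with TAC of -0.51 in WT and -0.37 in HCN4F (edgeR adjusted p = 0.0269 and 0.0159), both within the fold threshold.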

How the data were processed

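RNA was taken from frozen left ventricle, polyA-selected and sequenced on an Illumina platform. The deposited table holds raw read counts per Ensembl gene made by the authors, and the submitters' processing notes name the build GRCm38. The aligner, counter, annotation version and use of strand were not given in the sources used here. Columns were matched to samples by name, and 2 further columns of per-sample values, named for TAC and WT but matching no listed sample, were not used here, so WT-TAC rests on 2 libraries. Counts were fitted in R 4.3.3 with edgeR 4.0.16 (TMM scaling, filterByExpr by group, robust quasi-likelihood, all 14 libraries in 1 model, Benjamini-Hochberg adjustment over 15292 genes). The study used DESeq2, which served as an alternative (version 1.42.0, Wald test). SEs are the log2 fold change divided by the root of F. Z-scores used log2 CPM with a prior count of 2. Lengths were exon unions from GENCODE M21, and no member overlapped another annotated gene.

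All members were named. Of each other list, the called genes with the 3 largest changes in each comparison were named, with each member's nearest gene and the 5 genes nearest to the member mean. Srf, Hdac5 and Rxrg were not called and were named outside this rule, after their values were seen. The members and lists were chosen with earlier results of these data known. The labels name separate libraries, and the study describes its samples as biological replicates. Pairs of libraries within a group differed by a chi-square of 6.10 to 60.2 per gene, where counting noise alone gives about 1. On simulated counts with 200 changed genes per comparison, 197 to 199 were recovered with 0 to 7 false calls. The planted changes were larger than any change of a member and lay in genes with ample counts. The recovery therefore does not show how often smaller changes, or changes in genes with low counts, would be found. Figures were drawn with matplotlib 3.10.9.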

Additional observations from a re-analysis of the deposited data

Results flagged for a closer look

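In 30 sets of 4 libraries (the 10 members in each of 3 groups), a Dixon test at the 95% level was used to look for a library far from the others of its group. Chance gives about 1 in 20 such sets, and 2 of the 30 were found. Nr4a1 stood at 16.3 CPM in WT-Sham 4, where the other WT-Sham libraries lay between 26.7 and 27.9 CPM (gap over range 0.899). Nr4a2 stood at 4.91 CPM in HCN4F-TAC 3, where the other HCN4F-TAC libraries lay between 1.91 and 2.36 CPM (gap over range 0.849).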

How the results depend on the processing

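The 50 member results (10 members, 4 comparisons and the interaction) were recomputed in 1080 alternatives, of which 1032 kept direction and side of the threshold, 12 lost a call, 13 gained one and 23 turned the sign. The cause was not tested. All turned signs concerned values that no test had called.

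For TAC in WT, 2 members (Ier2 and Klf2) were called with DESeq2 (fitted on all groups or on the groups compared), with edgeR fitted on those groups alone, and with a mean CPM of at least 1, no robust estimation or the replicate block, against 1 in the report. All genes called numbered 108 and became 694 at the adjusted p alone, 192 with edgeR on those groups alone and 68 with the replicate block. For TAC in HCN4F the member count of 1 became 2 at the adjusted p alone or with no robust estimation, and 0 with edgeR on the compared groups, with no filter or with the replicate block, while DESeq2 on the compared groups kept 1 (Nr4a1). All genes called there went from 420 to 2081 at the adjusted p alone and 260 at a mean CPM of at least 1. Between Sham genotypes 2 members passed the adjusted p alone. All genes called there went from 32 to 72 at the adjusted p alone, 60 and 85 with DESeq2 on all and on the compared groups, 53 with no filter and 21 with the replicate block, and other immediate early genes called from 5 to 9, 9 and 3 with both DESeq2 fits and no filter. Between TAC genotypes all genes called went from 11 to 17 at the adjusted p alone, 83 and 68 with the DESeq2 fits, 3 with edgeR on the compared groups, 48 with no filter, 17 with no robust estimation and 7 with the replicate block. For the interaction, 0 genes became 37 with DESeq2 (1 member and 2 other immediate early genes), 17 with no filter and 1 with no robust estimation, that 1 being an other immediate early gene. The counts of other immediate early genes under these settings were added after seeing the data.

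Leaving out each library in turn gave 0 to 2 members called for TAC in WT, 0 to 1 for TAC in HCN4F, 1 to 1 between Sham genotypes and 0 to 0 between TAC genotypes and for the interaction. All genes called ran from 7 (without WT-TAC 3) to 126, 273 (without HCN4F-TAC 2) to 550, 11 (without WT-Sham 2) to 92 (without HCN4F-Sham 1), 6 (without WT-TAC 2) to 158 (without HCN4F-TAC 3) and 0 to 78 (without HCN4F-TAC 3). Other immediate early genes called ran from 4 (without WT-TAC 3) to 10, 5 to 7, 3 to 9 (without HCN4F-Sham 1), 0 to 0 and 0 to 1. Members whose libraries did not overlap numbered 6 to 8, 1 to 3 (3 without HCN4F-Sham 4 or HCN4F-TAC 1, 2 without HCN4F-Sham 1 or HCN4F-TAC 3), 3 to 4 and 2 to 7 (without WT-TAC 2) in the 4 comparisons. The share of all tested genes so separated rose as well, from 39.2%, 15.1%, 8.56% and 22.2% with all libraries to ranges of 43.1% to 62.4%, 17.6% to 23.4%, 10.8% to 20% and 26.8% to 50%. Without WT-TAC 2 it was 62.4% for TAC in WT (8 members) and 42.7% between TAC genotypes (7 members), and without WT-TAC 3 it was 60.2% (8 members) and 50% (2 members), so nothing about the members is read from these counts.

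Signs turned when single libraries were left out for Klf6 with TAC in WT (-0.51 to 0.004), Nr4a2 and Klf2 with TAC in HCN4F (-0.0928 to 0.49 and -0.10 to 0.26), Nr4a2, Klf6 and Ier5 between TAC genotypes (-0.0928 to 0.48, -0.16 to 0.35 and -0.0489 to 0.19) and the interaction of Nr4a1, Nr4a2, Klf6 and Ier3 (-0.21 to 0.57, -0.48 to 0.0833, -0.0899 to 0.43 and -0.11 to 0.34). Replicate numbers were not treated as pairs in the main fit. Same-numbered libraries correlated at -0.12 to 0.159 in their deviations from the group means. Differently numbered libraries were not set beside them, so these values cannot exclude a pairing. With the replicate block the interactions of Nr4a2 and Ier3 were 0.0466 and -0.0079, against -0.05 and 0.14.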
